A study of Mus musculus with 2 samples.

Results

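The 5 genes described here, Mir10a, Mir10b, Mir196a-1, Mir196a-2 and Mir196b, are microRNA (miRNA) genes that lie inside the 4 Hox clusters. They were chosen by their position and symbol, not by their level, and are 5 of the 2202 miRNA genes in the count tables. Earlier results of these data were known when they were chosen. Small RNA under 30 nt was sequenced from tissue labelled as a layer of the hippocampus, from adult female 5xFAD/CAST mice at 8 to 10 months of age. The 5xFAD transgenes carry familial Alzheimer's disease mutations and are driven by the neuronal Thy1 promoter, and CAST names a wild-derived inbred strain. The design has 1 group with 2 biological replicates, both under the same donor entry, and the labels do not say whether they were separate mice. Both libraries carry the same genotype, and no other genotype, age or brain region was compared. Any spread given here is therefore the spread between 2 libraries.

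Hox genes encode transcription factors that give cells of the embryo their position along the head-to-tail axis. In the nervous system they are expressed in the hindbrain and spinal cord, and the forebrain, which includes the hippocampus, lies in front of their domains. The miRNAs of the clusters are transcribed with or beside Hox genes and share much of that restriction. A miRNA guides the Argonaute protein to messenger RNAs that pair with its seed, bases 2 to 8 from the 5′ end, and lowers their output. miR-10 and miR-196 are both known to act on Hox messages, and miR-196 directs cleavage of the Hoxb8 message.

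The 5′ arms fall into a pair of seed groups, and they are shown because sequence decides which gene a read can be counted for. In the first group the seed, in capitals, was the same in both miRNAs.
miR-10a-5p: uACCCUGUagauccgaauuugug
miR-10b-5p: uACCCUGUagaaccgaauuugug
Counted from the 5′ end of miR-10a-5p, these differed by the single substitution U12A. In the second group the seeds were also the same.
miR-196a-5p: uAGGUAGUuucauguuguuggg
miR-196b-5p: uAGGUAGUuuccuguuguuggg
Counted from the 5′ end of miR-196a-5p, these differed by A12C. All 5 genes matched the RefSeq table of miRNA sequences (build GRCm38.p6). No other of its 1679 mature miRNA names carried either seed. Mir196a-1 and Mir196a-2 hold the same miR-196a-5p, so a read of it cannot be placed at 1 position. Their 3′ arms are not alike.
miR-196a-1-3p: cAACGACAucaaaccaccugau
miR-196a-2-3p: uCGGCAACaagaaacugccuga
The 3′ arms of Mir10a and Mir10b differed at 3 of 22 positions.

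Positions follow mm10 and the GENCODE M21 annotation, and each gene lies on the strand of its Hox cluster. Mir10a (ENSMUSG00000065519.1) lies at chr11:96317165-96317274 on the plus strand, 993 bp upstream of Hoxb4 and outside other annotated genes. Mir196a-1 (ENSMUSG00000065546.1) shares the HoxB cluster with it, at chr11:96265164-96265265, plus strand. It lies 6192 bp upstream of Hoxb9, also outside other genes. Mir10b (ENSMUSG00000065500.3) lies at chr2:74726070-74726137, plus strand, in introns of Hoxd4 and Hoxd3. Mir196a-2 (ENSMUSG00000065488.2) lies at chr15:102973350-102973434, plus strand, between Hoxc10 and Hoxc9 and within an intron of a long Hoxc5 transcript. Mir196b (ENSMUSG00000065443.1) lies at chr6:52230081-52230165 on the minus strand. It falls within an exon of 2 of the 3 Hoxa9 transcripts that span it, outside coding sequence and annotated UTRs, and within an intron of the other. The miR-10 genes thus sit beside group 4 Hox genes, and the miR-196 genes beside group 9.

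**Figure D1:**
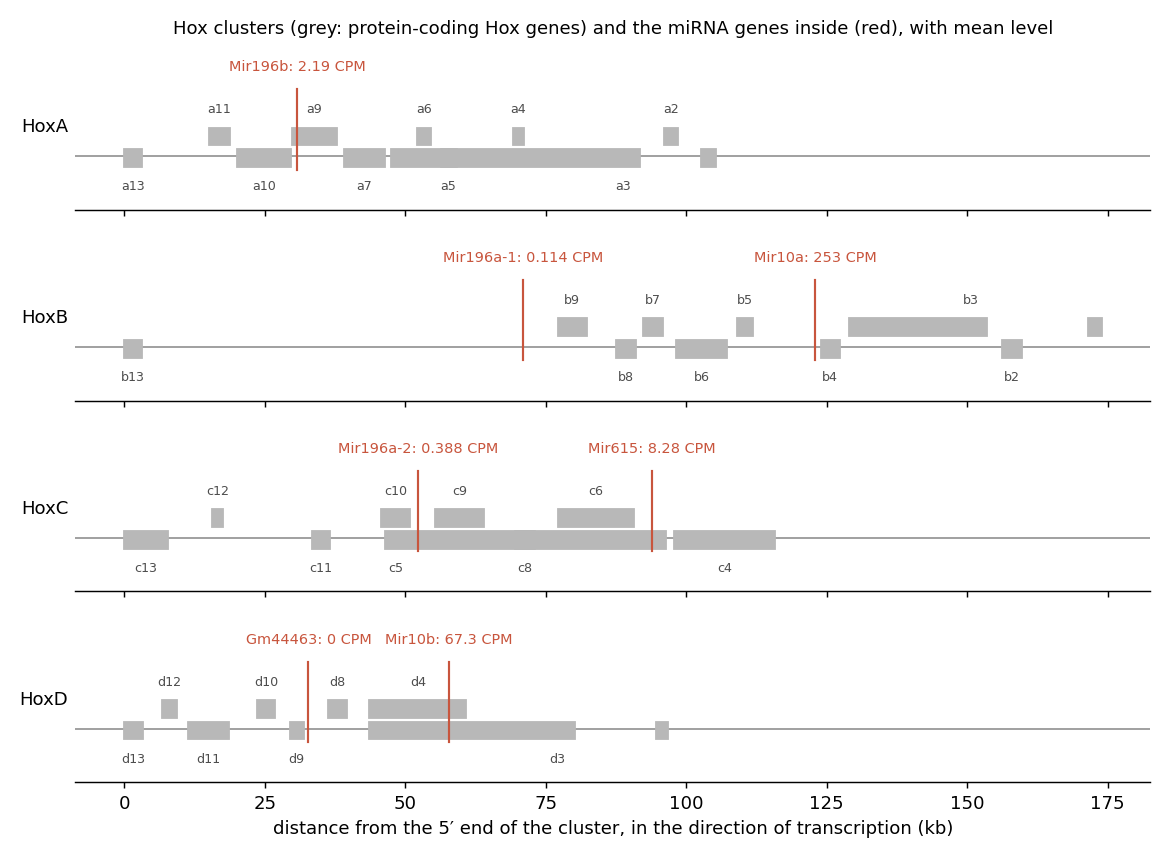
Map of the 4 Hox clusters, with distance from the 5′ end of each cluster in kb on the horizontal axis, Hox genes as grey boxes (most labelled by letter and number) and miRNA genes as red lines with their mean level in CPM over 2 libraries. Mir10a at 253 CPM and Mir10b at 67.3 CPM lie by the group 4 Hox genes, and the 3 miR-196 genes, by group 9, are at 2.19 CPM or lower.

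All 5 genes had at least 1 count in 1 or both libraries, as 34.4% of all genes in the tables had. Of the 5, only Mir10a and Mir10b were detected, where detection means at least 10 counts in each library. Over all genes in the tables, 17.4% were detected by the same rule. Levels are given in CPM, a gene's share of the counts assigned to miRNA genes scaled to 1000000, with exact Clopper-Pearson 95% intervals for single libraries. The libraries held 3135960 assigned counts in replicate 1 and 4377622 in replicate 2, so 1 read was worth 0.319 and 0.228 CPM. Because PCR copies of a molecule are counted again, intervals and limits cover counting error only.

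Mir10a had the highest counts of the 5, and it differed widely between the libraries. It had 336 counts in replicate 1, which is 107 CPM (interval 96.0 to 119), and 1747 counts in replicate 2, which is 399 CPM (381 to 418). The intervals were far apart, and the mean was 253 ± 206 CPM (SD, n = 2). Mir10b, its near copy from the HoxD cluster, had 98 and 452 counts. The level of Mir10b was 31.3 CPM (25.4 to 38.1) in replicate 1 and, in replicate 2, 103 CPM (94.0 to 113), with a mean of 67.3 ± 50.9 CPM. In both libraries Mir10a lay above Mir10b with intervals that did not meet, although their means differed by less than the SD of Mir10a. By mean level Mir10a stood at rank 151 and Mir10b at rank 223 of 2202 genes. Among the 384 detected genes, whose median was 116 CPM, this placed Mir10a above the middle and Mir10b below it.

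The miR-196 genes were close to the limit of detection. Mir196b had 8 counts in each library, or 2.55 CPM (1.10 to 5.03) in the first and 1.83 CPM (0.789 to 3.60) in the second. Its intervals overlapped, and its mean of 2.19 ± 0.512 CPM (SD, n = 2) lay above the limit that a count of 0 allows. That limit, taken as 3 counts, was 0.957 CPM and 0.685 CPM, in the same order. Mir196a-2 had 1 and 2 counts and Mir196a-1 had 0 and 1, all below the limit. For these 2 genes the depth cannot tell a low level from none. Reads of their shared 5′ arm fit both positions, and multimapping reads, 36.3% and 41.7% of all reads, were listed apart from the gene counts. The level of miR-196a is therefore uncertain in a way that those of Mir196b, Mir10a and Mir10b, whose mature sequences each have 1 gene in the RefSeq table, are not.

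The counts came from the strand of the genes. On the opposite strand Mir10a had 3 counts in replicate 2, at the limit of a count of 0, and none in replicate 1. The other 4 genes had 0 opposite-strand counts in both libraries.

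**Figure D2:**
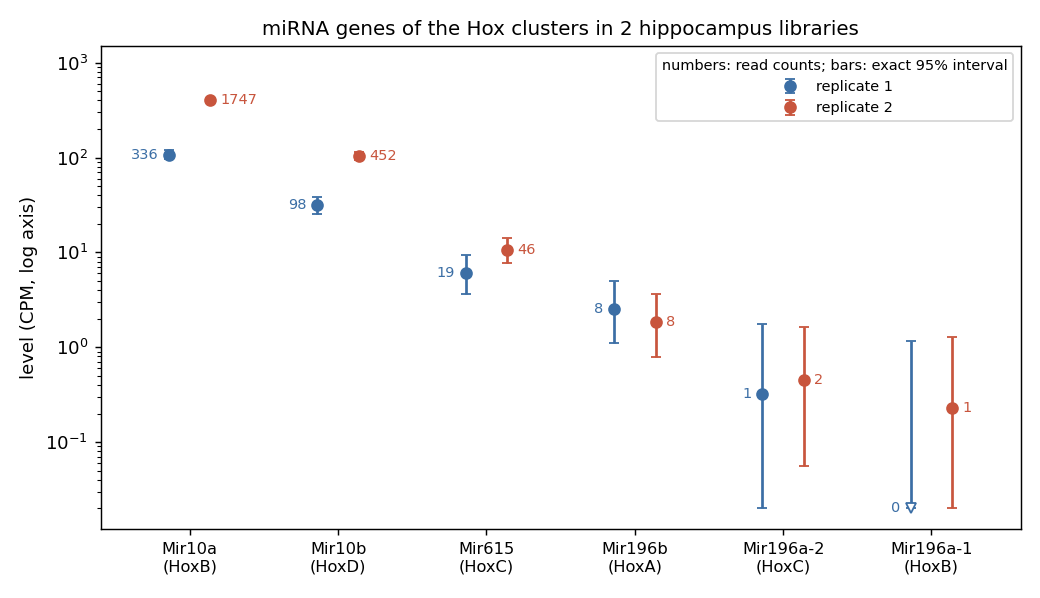
Level of the miRNA genes of the Hox clusters in each library, in CPM on a log axis, with replicate 1 in blue, replicate 2 in red, read counts as numbers and exact 95% intervals as bars, drawn no lower than 0.02 CPM. Mir10a and Mir10b lie higher in replicate 2 with intervals that do not meet, and Mir196b overlaps between the libraries. The open triangle is a count of 0, and Gm44463, with 0 counts in both libraries, is left out.

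The ratio of Mir10a to Mir10b had overlapping intervals in the 2 libraries, while the level of each gene did not. Mir10a outnumbered Mir10b by 3.43 times (interval 2.73 to 4.34) in replicate 1 and by 3.87 times (3.48 to 4.30) in replicate 2. This ratio within a library does not depend on scaling, and its mean was 3.65 ± 0.309 (SD, n = 2). Mir10a supplied 77.4% of the counts of the pair in replicate 1 (73.2% to 81.3%) and 79.4% in replicate 2 (77.7% to 81.1%). The difference between the ratios was not past the threshold (Fisher's exact test on the counts of the 2 libraries, two-sided, p = 0.366). The genes sit on different chromosomes and differ at 1 base of the 5′ arm. No source used here says how a read with a mismatch was placed.

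Between the libraries, Mir10a was 3.55-fold higher in replicate 2 (interval 3.16 to 4.00) after TMM scaling, and Mir10b was 3.15-fold higher (2.52 to 3.96). An exact binomial test of each gene's counts takes counting error alone as its null, and it compares these libraries, not conditions. It gave adjusted p = 1.22e-127 for Mir10a and 1.48e-29 for Mir10b over 459 genes with at least 10 counts in either library. By the same test 56.9% of those genes differed, and 27.9% were higher in replicate 2, so a call of this kind is common here. The size was less common. A rise of at least 3-fold in replicate 2 was seen in 7.41% of the 459 genes, and in 2.66% of the 301 genes with at least 100 counts over both libraries. Among these 301, Mir10a ranked 7 and Mir10b ranked 8 by their fold in that direction. The spread of all tested genes between the libraries, as edgeR's common coefficient of variation, was 0.389. The libraries also differed in depth (9962659 and 12761689 reads) and in unmapped reads (26.5% in replicate 1 and 18.1% in replicate 2), and the part of these in the difference was not tested.

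**Figure D3:**
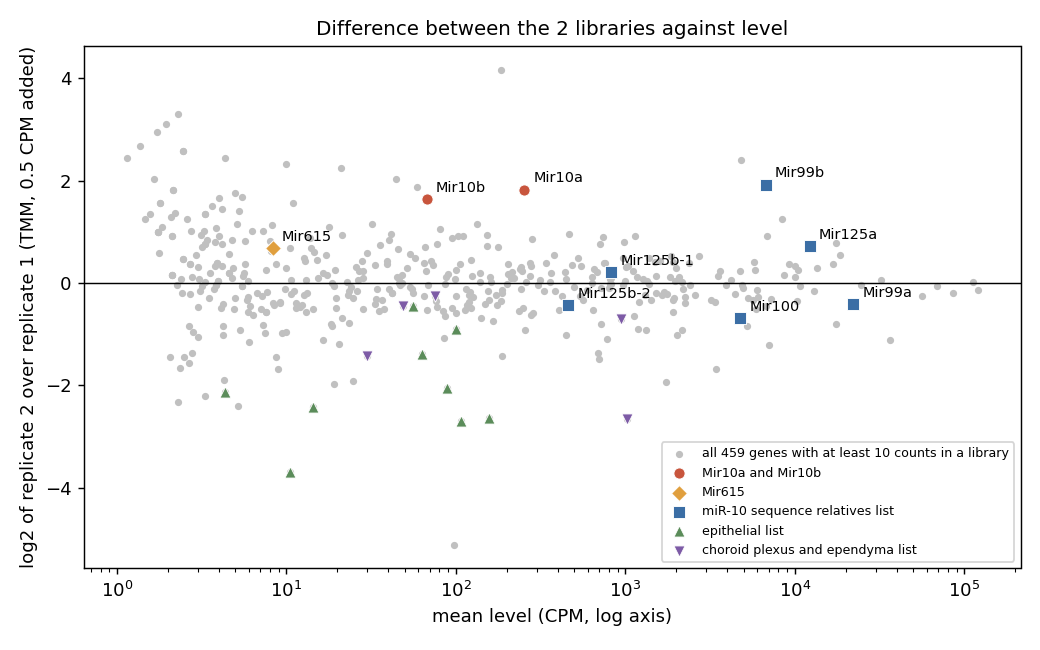
Log2 ratio of replicate 2 over replicate 1 (TMM-scaled, 0.5 CPM added) against mean level in CPM on a log axis, with 1 point per gene for the 459 genes tested. Mir10a and Mir10b lie at 1.82 and 1.64, above nearly all genes of like level, beside Mir99b among their sequence relatives. The tested genes of the epithelial list lie below 0.

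The annotation places 7 miRNA genes between the first and last Hox gene of the 4 clusters, and 2 of them are not among the 5. Mir615, in an intron of Hoxc5 at chr15:103014910-103015001, had 19 and 46 counts, or 6.06 and 10.5 CPM (8.28 ± 3.15, SD, n = 2). Its fold of 1.65 had an interval of 0.949 to 2.99 and did not pass (exact binomial test, adjusted p = 0.119). That interval lay below the interval of Mir10a and overlapped that of Mir10b. Mir615 was detected in both libraries, above Mir196b and below Mir10b. Gm44463, on the strand opposite to the HoxD genes, had 0 counts in both libraries, which allows up to 0.957 and 0.685 CPM. The order by reads counted for each gene was thus Mir10a, Mir10b, Mir615 and Mir196b, and then the 2 miR-196a genes, which are not told apart from each other. The place of these 2 genes leaves out reads of their shared 5′ arm, so it does not rank the level of miR-196a.

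The relatives of miR-10 in sequence, the miR-99, miR-100 and miR-125 genes, lie outside the Hox clusters. They are shown because of the stretch that miR-10 and miR-99 share, with the seed of each in capitals.
miR-99a-5p: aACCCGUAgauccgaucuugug
miR-99b-5p: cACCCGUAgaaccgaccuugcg
miR-100-5p: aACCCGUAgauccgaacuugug
The run of 10 bases from position 7 to 16 of miR-10a-5p recurs in miR-99a-5p from position 6, and the run at the same place in miR-10b-5p recurs in miR-99b-5p. The seeds of the groups are not the same. All 6 relatives were detected, and together they held 43518 and 50906 CPM in replicates 1 and 2. Mir10a and Mir10b were 0.317% of the counts of these 8 genes in replicate 1 (interval 0.288% to 0.348%) and 0.977% in replicate 2 (0.937% to 1.02%).

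Of the relatives, 3 were higher and 3 lower in replicate 2 by the exact binomial test, with a median log2 ratio of -0.10, against 0.03 over all 459 genes. Mir99b was at 2703 and 10743 CPM in replicates 1 and 2, a fold of 3.79 that lies close to those of Mir10a and Mir10b. Mir99a, at 24813 and 19543 CPM, had a fold of 0.750. Mir100, at 5771 and 3774 CPM, had a fold of 0.623. Sharing the miR-99 seed thus did not go with 1 direction between the libraries. Mir125a was 1.65-fold higher in replicate 2, Mir125b-1 was 1.16-fold higher and Mir125b-2 had a fold of 0.744.

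By their library ratio, the genes most like Mir10a among those with at least 100 counts, leaving out the 5 genes themselves, were Mir6236, Mir99b, Mir148b, Mir1930 and Mir22. Their log2 ratios were 1.88, 1.92, 2.02, 2.25 and 1.26, against 1.82 for Mir10a. Mir10b, at 1.64, was nearer to Mir10a than Mir148b, Mir1930 and Mir22 were. On the same terms those most like Mir10b were Mir6236, Mir99b, Mir22, Mir148b and Mir148a, the last at 1.16 against 1.64 for Mir10b, and Mir10a was nearer to Mir10b than any of them. This likeness rests on 2 libraries and is a description only. By level, Mir10a fell between Mir702 at 274 ± 27.3, Mir339 at 258 ± 12.6 and Mir1298 at 255 ± 104 CPM on one side and Mir145a at 248 ± 51.4, Mir1306 at 245 ± 37.4 and Mir30c-2 at 243 ± 45.0 CPM on the other (SD, n = 2). All 6 differed from Mir10a by less than its SD of 206 CPM. Mir10b fell between Snord43, Mir29b-1 and Mir26a-2, at 71.4 to 67.3 CPM, and Mir7047, Mir24-2 and Mir377, at 66.9 to 65.0 CPM, and these too were within its SD.

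The let-7 miRNAs, which restrain growth in mature cells, are listed as relatives of miR-196 only for a run of bases that they share. Compared base by base, miR-196a-5p and let-7g-5p differ at 16 of 22 positions, and their seeds are not the same. The seed of miR-196a-5p, bases 2 to 8, recurs in let-7g-5p from position 3, so these miRNAs share a run of 7 bases in shifted register.
let-7g-5p: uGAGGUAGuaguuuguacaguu
All 12 let-7 genes (Mir98 included) were detected, with 385138 and 354720 CPM in replicates 1 and 2. The 3 miR-196 genes together had 2.87 and 2.51 CPM. In counts, the let-7 genes had 1207778 and 1552830, against 9 and 11 for the miR-196 genes, too few for a precise ratio. Reads of miR-196a-5p, and of let-7 miRNAs held by several genes, are multimapping and were listed apart from these counts. The counts therefore show that far more reads were assigned to the let-7 genes, but not the ratio of the miRNAs themselves. In the let-7 list 2 genes were higher and 10 lower in replicate 2 by the exact binomial test, with a median log2 ratio of -0.27. Of all 459 tested genes, 27.9% were higher and 29% lower. Mirlet7d had the lowest fold of the list at 0.466, past the 2-fold mark that 9.8% of tested genes passed downwards, and none was 2-fold higher, as 12.2% were.

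Leaving out the oligodendrocyte and forebrain neuron lists, summed markers of other cell types were lower in replicate 2 for 4 lists and higher for 3. The sums were not tested, and some moved little. Replicate 2 over replicate 1 was 0.931 for the fibroblast and meninges list, 1.08 for striated muscle and 1.12 for erythroid. The epithelial list, led by Mir183, Mir200c and Mir203, fell from 930 CPM in replicate 1 to 276 CPM in replicate 2, and its 7 detected genes were all lower there (exact binomial test), with 5 of them at least 2-fold lower. Of all 384 detected genes, 31.8% were called lower and 8.07% were at least 2-fold lower. The remaining 3 genes of the list were not detected: Mir141 had 62 and 5 counts, Mir96 had 23 and 6, and Mir205 had 4 and 8. Mir183, Mir182 and Mir96 belong to a cluster known from sensory cells, so the list does not measure epithelium alone. Mir183 went from 270 to 45.5 CPM, and Mir200c, of the epithelial miR-200 family, from 185 to 29.7 CPM. The choroid plexus and ependyma list, led by Mir34c, Mir204 and Mir211, went from 3072 to 1165 CPM, with 4 of 5 detected genes lower and none higher. A large part of that fall was Mir34c, from 1747 to 292 CPM. Mir34b had a fold of 0.366, Mir204 of 0.617 and Mir449a of 0.730. Mir211 did not pass (exact binomial test, adjusted p = 0.0640). Mir449b, another gene of the list, was at 0 in both libraries. Both lists moved in the direction opposite to the miR-10 genes. The lists were chosen with earlier results of these data known, so these shares and directions are a description only.

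The endothelial marker Mir126a moved in the same direction as the miR-10 genes, from 12521 to 22475 CPM, a fold of 1.71. Mir126b, the other gene of that list, had 0 counts. In the unstranded column the list had a mean of 0.172 CPM, so its level rests on the sense column. Its part in the result was not tested. Smooth muscle and pericyte markers (Mir143 and Mir145a) summed to 8170 and 6864 CPM, and both were lower in replicate 2. The erythroid list summed to 70.2 and 78.4 CPM. In it Mir451a was lower in replicate 2 and Mir486 did not pass. Mir144 had 9 and 75 counts and so was not detected. It was called higher in replicate 2, with a fold of 5.69 (exact binomial test, adjusted p = 7.12e-09). In the fibroblast and meninges list Mir214 was at 126 and 117 CPM, and Mir199a-1 and Mir199a-2, the defining copies, had 0 counts. Reads that fit both copies would be multimapping and left out, so these counts do not show that the miRNA was absent. The striated muscle list summed to 35.1 and 37.9 CPM, led by Mir206 and Mir499, with 5 of 9 genes at 0 in both libraries. Among these were the Mir1a and Mir133a copies, to which the same limit applies.

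The leading markers of the labelled tissue had high counts in both libraries, and other genes of the same list had few. The forebrain neuron list, led by Mir139, Mir132 and Mir128-1, had 9 of 13 genes detected and summed to 104842 and 103717 CPM in replicates 1 and 2. Of its 9 detected genes 3 were higher and 3 lower in replicate 2, with a median log2 ratio of 0.03. The 3 Mir124a genes, whose miRNA is typical of neurons, had 8 counts or fewer in each library, with means of 0.228 to 1.23 CPM. Mir9-2 was at 2.05 CPM and Mir9-1 at 26.4 CPM. Reads that fit several copies are multimapping and were listed apart from the gene counts. Low counts of the Mir124a and Mir9 copies therefore do not give the level of their miRNAs. The oligodendrocyte list (Mir219a-2, Mir338 and Mir219a-1) summed to 6799 and 6685 CPM, with 1 gene higher and 1 lower and Mir219a-1 at 4.99 CPM, and it was at 0 in the unstranded column. In tissue RNA, fewer cells of a type and less RNA per cell cannot be told apart, and the tables do not say which cells or region of the dissected tissue the miR-10 reads came from.

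**Figure D4:**
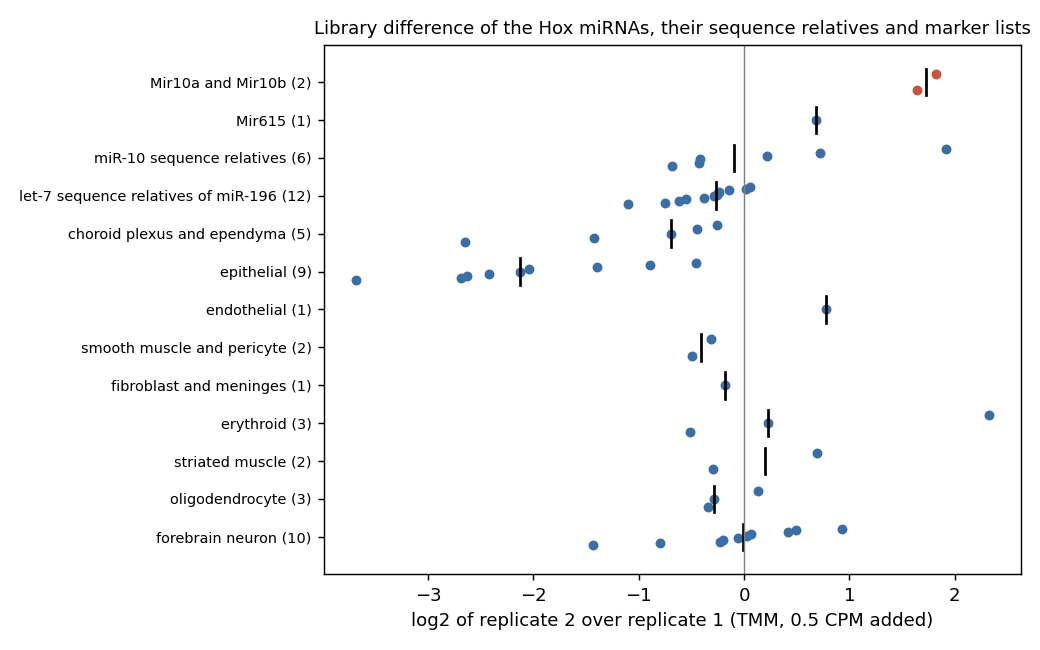
Log2 ratio of replicate 2 over replicate 1 (TMM-scaled, 0.5 CPM added) for each tested gene (points) of the lists, with the number of tested genes in brackets and the median as a black bar. The miR-10 genes lie to the right at 1.64 and 1.82, the epithelial list to the left with a median of -2.12 over 9 tested genes, 2 of which were under 10 counts in replicate 2, and the forebrain neuron list is centred at -0.02.

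The Hox messages themselves were not measured here, but the reference transcripts show where the seeds of these miRNAs can pair. The letters ACAGGGT, complementary to the miR-10 seed, and ACTACCT, complementary to the miR-196 seed, were searched on the sense strand of the longest 3′ UTR of each gene in M21. The first occurred in 12.5% of 21020 genes, with Hoxa3, Hoxb3 and Hoxd1 among them. The second occurred in 6.1% of the genes, with Hoxa4, Hoxa5, Hoxa7, Hoxa9, Hoxb1, Hoxb6, Hoxb7 and Hoxc8 among them. The median 3′ UTR was 966 bases in Hox genes and 961 in all genes. These matches describe letters in a window and are not evidence of repression.

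The Hoxb8 site holds nearly the whole complement of miR-196a-5p, and it is shown because the seed letters alone miss it. It lies at chr11:96284888-96284909 on the plus strand, in the 3′ UTR of Hoxb8, with capitals for bases that pair with miR-196a-5p in the Watson-Crick way.
Hoxb8 site: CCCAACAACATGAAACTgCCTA
Of its 22 bases, 21 pair in that way and 1, inside the seed, forms a G:U pair. For miR-10a-5p only sites with an exact seed match were examined. The best of these among Hox genes by paired bases was in Hoxd1, at chr2:74764930-74764952, plus strand.
Hoxd1 site: tAgcggaaCaaATCcACAGGGTA
It paired at 13 of 23 bases. By the same rule the best seed matches to miR-196a-5p, in Hoxa7, Hoxa9 and Hoxb7, paired at 14 of 22. The Hoxb8 site came from a search of whole windows that was not run for miR-10a-5p, so the Hoxb8 and Hoxd1 sites are not compared. Among 20914 genes with a 3′ UTR of at least 22 bases, Hoxb8 and Rps6ka2 were the only ones whose best window paired with miR-196a-5p at all 22 bases, G:U pairs included.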

How the data were processed

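The authors deposited 1 table of raw read counts per library, not normalized, with 4 summary lines above 2202 genes and 3 count columns. Per the deposited notes the build was mm10 and the annotation M21. No source used here names the aligner, the counter or the adapter trimming. The 3 columns hold counts without strand and for each strand; the second, taken as sense, had 93.4% (replicate 1) and 91.9% (replicate 2) of the stranded counts. Library sizes and tests leave out the summary lines, which hold unmapped reads, multimapping reads (36.3% and 41.7%), reads outside miRNA genes (5.72% and 5.91%) and ambiguous reads. Strain variants against mm10 were not examined.

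CPM used the sense counts assigned to genes. Replicate ratios used TMM (edgeR 4.0.16, R 4.3.3) over genes with at least 10 counts in either library, with exact binomial tests and Benjamini-Hochberg adjustment; log2 values had 0.5 CPM added and folds did not. Replicates measure only the spread between these samples, which may be technical. The test was run for this comparison on counts simulated with counting error alone, on 459 genes with 200 changed. It recovered 79% of 2-fold and 96% of 4-fold changes and called 1.54% of unchanged genes. Counting error alone is the null of the test, so a low share of unchanged genes called was built in. The real libraries differed beyond counting error (common coefficient of variation 0.389), so these rates do not describe them. Named genes are the 5 members, the miRNA genes of the Hox clusters, sequence relatives, the leading 3 of each marker list, and the nearest genes by level (3 on each side) and by ratio (5, with at least 100 counts). Members and lists were chosen with earlier results of these data known. 3′ UTRs were the exon bases past the stop codon. Alternatives covered the strand column, totals, DESeq2 1.42.0 size factors, the pseudocount, the count minimum and each replicate left out. Exact tests used scipy 1.17.1, tables pandas 2.3.3 with numpy 2.4.6, and figures matplotlib 3.10.9, under Python 3.11.15.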

Additional observations from a re-analysis of the deposited data

How the results depend on the processing

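The higher level of Mir10a and Mir10b in replicate 2 kept its direction and passed the exact binomial test in all 8 alternatives run. The pseudocount does not enter that test, so its result could not change in the alternatives that altered only the pseudocount. The log2 ratio of Mir10a ranged from 1.78 with a pseudocount of 5 CPM to 2.01 with library totals, and that of Mir10b from 1.51 to 1.80 under the same alternatives. Library totals moved the median log2 ratio of all tested genes from 0.03 to 0.21. The number of genes called ranged from 231 to 280, against 261. The share called moved with the count minimum: 231 of 312 genes (74.0%) at 50 counts and 259 of 757 (34.2%) at 1 count, against 261 of 459 (56.9%). With the other alternatives it was 55.3% to 61.0%. The summed level of the 5 genes, 323 CPM, was 141 CPM without replicate 2 and 505 CPM without replicate 1. With all reads of the library as the total it was 109 CPM, because that total is larger. The ratio of Mir10a to Mir10b was 3.43 to 3.87 with 1 replicate left out. The number of genes detected was 604 at 1 count in each library, against 384, and 4 of the 5 genes then counted as detected. It ranged from 398 to 445 with 1 replicate left out. With 2 libraries, a mean always lies within 1 SD of either value, so leaving out a replicate says little about stability. In the unstranded column the summed endothelial and oligodendrocyte markers fell from 17498 and 6742 CPM to 0.172 and 0 CPM, and the erythroid markers to 10.9 CPM; the cause was not tested. The depth limits the 3 miR-196 genes, which have 8 counts or fewer in each library. For Mir196a-1 and Mir196a-2, the separate listing of multimapping reads is a further limit. No paired analysis was possible because the libraries form 1 group.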
